A study of Homo sapiens with 24 samples.

Results

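The 10 genes described here encode the dual specificity phosphatases of the MAP kinases, DUSP1, DUSP2, DUSP4, DUSP5, DUSP6, DUSP7, DUSP8, DUSP9, DUSP10 and DUSP16. They were taken as every probe set of the array whose platform gene symbol is one of these names, which gave 22 probe sets out of 54675 and 10 genes out of 19775. A probe set is a group of short probes, and the platform annotation names each of these 22 for 1 gene. Other probe sets of the array are named for several genes or for none. DUSP16 has 4 probe sets, DUSP1, DUSP4 and DUSP6 have 3 each, DUSP7, DUSP8 and DUSP10 have 2 each, and DUSP2, DUSP5 and DUSP9 have 1.

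MAP kinases carry signals from growth factors, cytokines and stress by adding phosphate to other proteins, and are switched on by phosphate on a threonine and a tyrosine of their activation loop. Dual specificity phosphatases of this family bind a MAP kinase and remove both phosphates, and several of them are themselves switched on by the kinases they inactivate. By location and substrate they fall into inducible nuclear enzymes (DUSP1, DUSP2, DUSP4 and DUSP5), cytoplasmic enzymes that act on ERK (DUSP6, DUSP7 and DUSP9), and enzymes that act on the stress kinases JNK and p38 (DUSP8, DUSP10 and DUSP16). TNFα, an inflammatory cytokine, activates NFκB together with JNK and p38.

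The transcripts were measured in HEK293 cells, a human line derived from embryonic kidney. Cells received no DNA (untransfected), the plasmid pCDNA3 alone (empty vector), pCDNA3 carrying Flag-tagged wild type SIRT6 (SIRT6), or the same plasmid carrying the H133W mutant, which lacks deacetylase activity (H133W). After 24 h each of the 4 kinds of cells was given medium with 10 ng/ml TNFα or with its PBS/0.1% BSA carrier alone, which makes 8 conditions of 3 biological replicates, 24 arrays in all. The methods give 4 h of TNFα and the series' own design text 1 h. Transfection was transient, so that each value averages cells that took up the plasmid and cells that did not, all groups carry the endogenous SIRT6, and in such bulk samples fewer cells that express a gene cannot be told apart from less transcript per cell.

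All values below are log2 RMA values, the deposited unit, in which a difference of 1 is a doubling, and the number of arrays limits their precision. Differences between conditions came from 1 linear model over the 24 arrays (limma), with p values adjusted by Benjamini-Hochberg over all 54675 probe sets. A probe set is said to have risen, fallen or passed at an adjusted p under 0.05, and calls that were also over 1.5-fold (0.585 on the log2 scale) are counted beside these. Of 58 member calls in single comparisons, 21 also passed when only the arrays of that comparison were fitted. Log2 values depend on the probes, so that no level is set against that of another probe set.

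The 3 arrays of lowest weight were also left out in a check chosen after seeing the data. H133W + TNFα replicate 3 had the lowest array weight in limma (0.0844) and the largest difference between the 3′ and 5′ control probe sets of β-actin (3.03), a sign of RNA quality. Empty vector replicate 2 was next on the second measure (2.05, weight 0.383), against 1.33 to 1.79 on the other 22 arrays. Untransfected replicate 2 had a weight of 0.311 and lay within that range (1.65). The next lowest weight was 0.439, of untransfected + TNFα replicate 3. Beside each member whose call changed when these 3 arrays were left out, the value without them is given. A low weight marks an array far from its group means, so that leaving it out narrows the spread by itself. A call gained in this way is given as a description and is not separate support. Markers of HEK293 cells were present, with NEFL at 12.34, VIM at 11.67 and LIN28B at 11.25, although PAX2 (4.99) and NEFM (5.11) were low. PTPRC (2.74) and CD3E (2.06), which define blood cells, and ALB (3.17), which defines hepatocytes, were low. All 4 measured blood cell markers had means under 5, as had 3 of 4 of hepatocytes and 5 of 7 of fibroblasts. Under TNFα on average 2 of 8 HEK293 markers fell, PAX2 by -0.47 and VIM by -0.098, as did 1 of 7 fibroblast markers, PDGFRA, by -1.10. Against empty vector CD14 was 0.63 higher in SIRT6 cells with TNFα (adjusted p = 0.0499), and in H133W cells COL3A1 differed by -0.57 without TNFα and PDGFRA by -0.86 with it (adjusted p = 0.00873 and 0.00825). H133W minus SIRT6 with TNFα was -0.55 for CD14 (adjusted p = 0.0355). The mean of the HEK293 list was 9.06 to 9.21 on arrays with TNFα and 9.19 to 9.35 without it, and that of the fibroblast list 4.58 to 4.81 and 4.60 to 5.15, and the part of these in the results below was not tested. Of the 2 SIRT6 probe sets, 233179_x_at rose by 1.15 in H133W cells against empty vector (adjusted p = 0.0357) and differed by 0.80 with TNFα (adjusted p = 0.12), while in SIRT6 cells it differed by 0.75 and with TNFα by 0.59 (adjusted p = 0.749 and 0.781). 219613_s_at differed by 0.082 in H133W cells (adjusted p = 0.775) and rose by 0.48 with TNFα (adjusted p = 0.00733), while in SIRT6 cells it differed by 0.069 and with TNFα by 0.15 (adjusted p = 1 and 0.915). Whether either lies in the part carried by the plasmids is not given in the sources used here.

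Of the 22 probe sets 19 had a mean of at least 5 over the 24 arrays, and DUSP2 (3.57), DUSP7 214793_at (4.19) and DUSP16 1563505_at (3.17) lay below it. TNFα, averaged over the 4 kinds of cells, raised 5 probe sets, of DUSP8 and DUSP16, and lowered 7, of DUSP4, DUSP6 and DUSP7, while 10 did not pass. These 12 of 22 stand against a background of 11.7% of all probe sets (4.6% higher and 7.1% lower), and none of them was over 1.5-fold in that average (background 0.843%). Empty vector cells had 9 members past the test under TNFα (background 1.95%), 4 of them higher (background 1.03%) and 5 lower (background 0.922%). Untransfected cells had 6 (background 1.61%), 5 higher (background 1.03%) and 1 lower (background 0.583%). SIRT6 cells had 7 (background 2.09%), 4 higher (background 0.92%) and 3 lower (background 1.17%), and H133W cells 10 (background 3.24%), 4 higher (background 1.29%) and 6 lower (background 1.95%). In the same order, the counts also over 1.5-fold were 0, 1, 1 and 3 (backgrounds 0.86%, 0.775%, 0.845% and 1.12%).

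Among the comparisons of plasmids, SIRT6 against empty vector had 2 members past the test both without TNFα (background 0.0713%) and with it (background 0.135%), all of DUSP8, higher and over 1.5-fold (backgrounds 0.0348% and 0.0695%). H133W against empty vector had 7 without TNFα (background 3.03%), 6 higher (background 2%) and 1 lower (background 1.03%), and 6 with it (background 5.25%), 5 higher (background 2.97%) and 1 lower (background 2.28%), of which 3 and 2 were over 1.5-fold (backgrounds 0.77% and 1.4%). H133W against SIRT6 had 2 without TNFα (background 0.428%) and 4 with it (background 1.15%), 3 higher (background 0.843%) and 1 lower (background 0.305%), none over 1.5-fold (backgrounds 0.119% and 0.333%). Empty vector against untransfected had 3 without TNFα (background 0.269%, and 0 over 1.5-fold against 0.0933%) and 0 with it (background 0.0439%, and 0.0329% over 1.5-fold), where 7 had an unadjusted p under 0.05 and a plain linear model also called 0. These comparisons share arrays: the 3 unstimulated empty vector arrays serve both SIRT6 and H133W, as well as TNFα in empty vector cells. The median difference of the 22 probe sets was -0.043 under TNFα on average (-0.015 over all probe sets, 9 members higher and 13 lower) and 0.039 in H133W against empty vector without TNFα (-0.017 over all probe sets, 13 higher and 9 lower). In SIRT6 against empty vector without TNFα it was 0.10 (-0.0031 over all probe sets), with 18 higher and 4 lower.

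**Figure D1:**
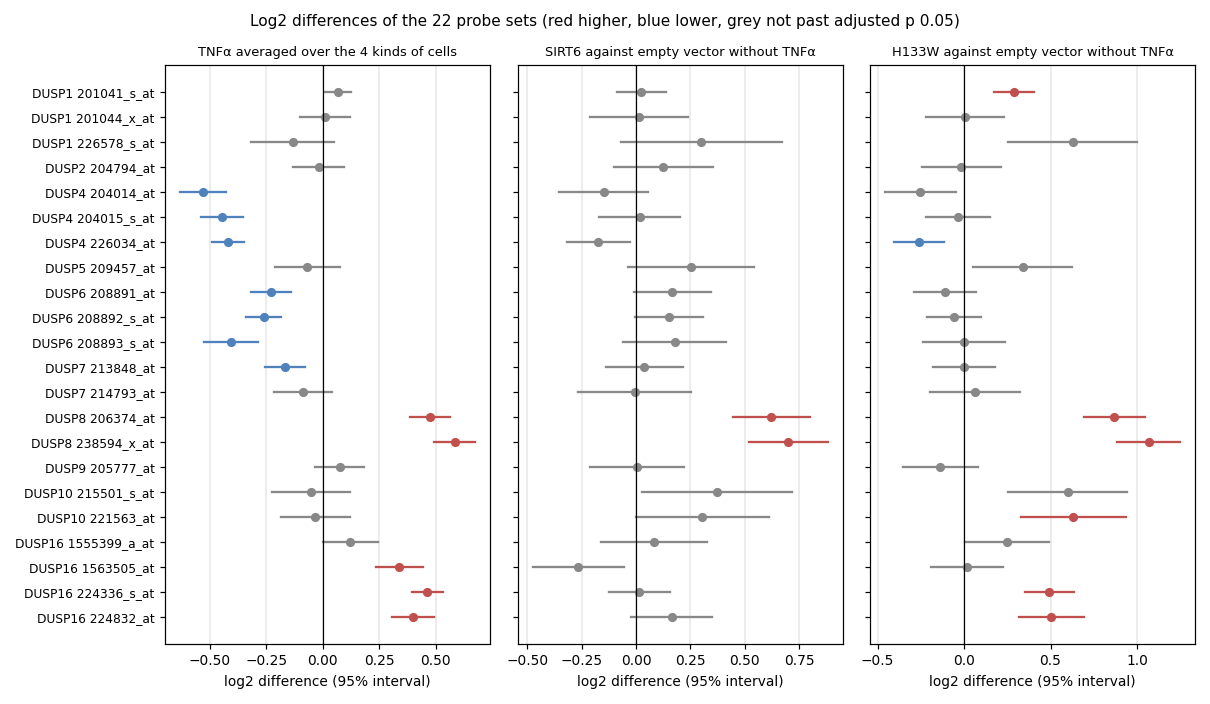
Log2 differences of the 22 probe sets (rows) for TNFα averaged over the 4 kinds of cells, SIRT6 against empty vector and H133W against empty vector, both without TNFα. Points are differences of condition means and bars their 95% intervals from the limma fit, in red where a probe set passed as higher, in blue where it passed as lower and in grey where it did not pass. DUSP8 lies to the right in all 3 panels, from 0.47 to 1.07, while DUSP4 and DUSP6 lie to the left under TNFα, from -0.23 to -0.53.

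DUSP8 was the member that moved most. This phosphatase acts on JNK and p38 and is known from brain, heart and skeletal muscle. Both of its probe sets rose with TNFα, with SIRT6 and with H133W. Both also passed as higher with the empty vector than in untransfected cells without TNFα, calls that were lost when single arrays were left out. The stretch of 250 bases before the transcription start of DUSP8 holds a repeated CRE, the cyclic AMP response element bound by CREB and ATF proteins, and is shown here because DUSP8 carries the largest differences. It is set beside DUSP1, the only other member in the promoter set with this motif, DUSP16, which also rose with TNFα, and DUSP6, which fell. The sequences are from RefSeq (GRCh38.p14), 5′ to 3′ on the strand of the gene, with CRE in capitals:
DUSP8: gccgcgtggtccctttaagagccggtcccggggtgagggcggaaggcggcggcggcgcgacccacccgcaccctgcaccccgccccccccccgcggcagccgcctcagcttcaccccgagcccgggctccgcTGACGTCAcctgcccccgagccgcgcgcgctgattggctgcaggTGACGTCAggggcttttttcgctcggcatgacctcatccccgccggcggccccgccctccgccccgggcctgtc
DUSP1: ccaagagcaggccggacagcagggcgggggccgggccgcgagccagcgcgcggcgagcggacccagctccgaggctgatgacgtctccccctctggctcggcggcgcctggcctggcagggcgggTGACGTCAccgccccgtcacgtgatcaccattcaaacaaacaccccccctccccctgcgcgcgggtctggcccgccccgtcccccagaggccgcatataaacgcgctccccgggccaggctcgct
DUSP16: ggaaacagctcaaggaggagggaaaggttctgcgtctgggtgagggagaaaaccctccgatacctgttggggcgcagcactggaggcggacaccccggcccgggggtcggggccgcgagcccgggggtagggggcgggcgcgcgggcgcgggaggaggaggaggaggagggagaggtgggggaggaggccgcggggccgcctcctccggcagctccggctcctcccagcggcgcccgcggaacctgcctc
DUSP6: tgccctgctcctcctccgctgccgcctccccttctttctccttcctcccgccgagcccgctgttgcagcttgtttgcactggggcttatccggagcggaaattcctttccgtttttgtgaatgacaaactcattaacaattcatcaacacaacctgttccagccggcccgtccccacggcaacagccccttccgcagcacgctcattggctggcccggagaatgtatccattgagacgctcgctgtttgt
They lie on the minus strand at chr11:1572272-1572521, chr5:172771196-172771445, chr12:12562864-12563113 and chr12:89352502-89352751. CRE (TGACGTCA, its own reverse complement) lies 118 to 111 and 74 to 67 bases before the start of DUSP8 and 125 to 118 bases before that of DUSP1. CRE is held by 1.646% of the 35116 windows of this length in the promoter set, and 0.054% hold at least 2. Sequences of the chromosome that carries DUSP4 were left out beforehand, and DUSP5 was not in the promoter set. This left 8 of the 10 members in 10 windows. None of the 10 windows holds AP-1 (TGANTCA), the C/EBP-ATF motif (TGATGNAAT), the heat shock pair (GAANNTTC), ETS (CCGGAAG), the NFκB consensus or CArG, searched on both strands, and these are found in 6.573%, 0.888%, 5.781%, 8.517%, 5.206% and 1.159% of all windows. A match, or its absence, describes these letters and says nothing of binding.

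In untransfected cells DUSP8 (206374_at) was at 6.25, 6.16 and 6.28, and with TNFα at 6.68, 6.82 and 6.84. In empty vector cells it was at 6.67, 6.62 and 6.64, and with TNFα at 7.06, 7.06 and 7.11. Stimulated untransfected arrays lay just above unstimulated empty vector arrays, and stimulated and unstimulated arrays of one kind of cells did not overlap. In SIRT6 cells the values were 7.22, 7.33 and 7.24 without TNFα and 7.70, 7.62 and 7.68 with it. In H133W cells they were 7.61, 7.44 and 7.48, and with TNFα 8.20, 8.09 and 7.77, the last on the array of lowest weight. Every SIRT6 array was above every empty vector array of the same stimulation, and so was every H133W array above every SIRT6 array when both were stimulated or both were not.

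The other probe set of DUSP8 (238594_x_at) gave the same order of conditions. It went from 5.43, 5.04 and 5.14 in untransfected cells to 5.91, 5.82 and 5.66 with TNFα, and from 5.71, 5.62 and 5.72 to 6.17, 6.08 and 6.22 in empty vector cells. It went from 6.37, 6.33 and 6.44 to 6.92, 6.95 and 7.08 in SIRT6 cells, and from 6.74, 6.68 and 6.82 to 7.48, 7.39 and 7.38 in H133W cells. H133W + TNFα replicate 3 was close to replicate 2 here. The 2 probe sets correlated at r = 0.982 over the 24 arrays, which share conditions and normalisation.

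**Figure D2:**
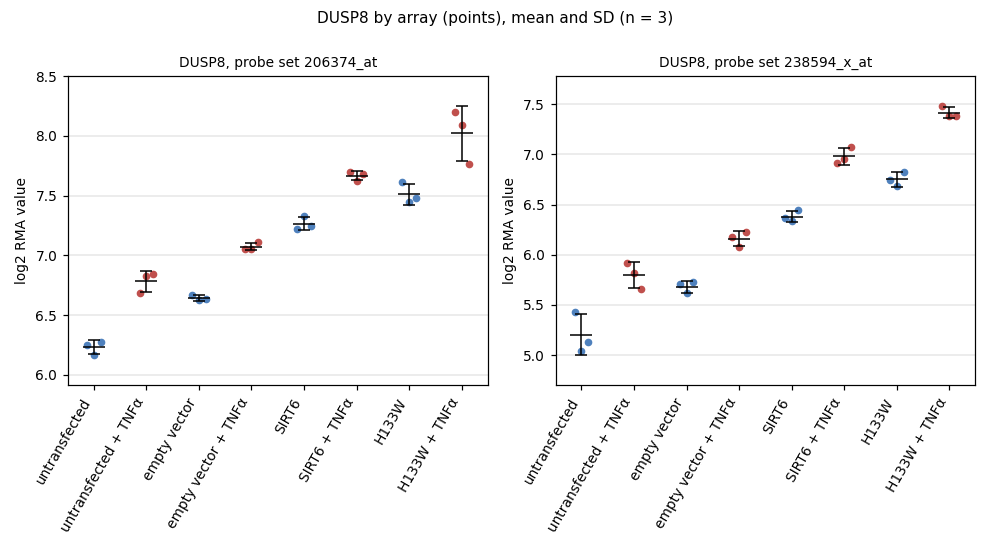
Log2 RMA values of DUSP8 on each array for its 2 probe sets, by condition, in red with TNFα and in blue without it. Horizontal marks are means and bars SDs of 3 arrays. Each kind of cells is higher with TNFα, and the unstimulated arrays climb from untransfected (6.16 to 6.28) through empty vector and SIRT6 to H133W (7.44 to 7.61) in the left panel.

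SIRT6 raised DUSP8 by 0.62 (SE 0.0843, adjusted p = 0.00217) and 0.70 (SE 0.0873, adjusted p = 0.0011) over empty vector in limma. With TNFα the rises were 0.60 (SE 0.0843, adjusted p = 0.00339) and 0.82 (SE 0.0873, adjusted p = 0.000193). H133W raised it over empty vector by 0.87 (SE 0.0843, adjusted p = 2.95e-06) and 1.07 (SE 0.0873, adjusted p = 3.91e-07), and with TNFα by 0.95 (SE 0.0843) and 1.26 (SE 0.0873). All 8 of these differences passed with any single array left out. Fitted on the arrays of a comparison alone, those of SIRT6 without TNFα were not past the test (adjusted p = 0.178 and 0.119), nor was that of H133W with TNFα on 206374_at (adjusted p = 0.0721). Without the 3 arrays of lowest weight those of H133W were 0.86 and 1.04, and with TNFα 1.08 and 1.28.

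TNFα raised DUSP8 in each kind of cells, by 0.55 and 0.60 in untransfected, 0.43 and 0.48 in empty vector, 0.40 and 0.60 in SIRT6 and 0.51 and 0.67 in H133W cells (limma, adjusted p from 9.57e-05 to 0.0102). The rise of 206374_at in SIRT6 cells was not past the test without SIRT6 replicate 1 or SIRT6 + TNFα replicate 1 or 3 (adjusted p up to 0.0618 over the left-out arrays). On the arrays of the comparison alone the rises in H133W cells (adjusted p = 0.317 and 0.0518) and that of 238594_x_at in untransfected cells (adjusted p = 0.101) did not pass. Without the 3 arrays of lowest weight the latter rise was 0.51 (adjusted p = 0.00239) and no longer over 1.5-fold. On average over the 4 kinds of cells the rises were 0.47 (SE 0.0422, adjusted p = 9.02e-08) and 0.58 (SE 0.0437, adjusted p = 6.75e-09). The empty vector raised DUSP8 by 0.41 and 0.48 over untransfected cells (adjusted p = 0.0454 and 0.0332). The first of these calls was lost whichever of the 6 arrays was left out (adjusted p from 0.0562 to 0.18). The second was lost without any array but untransfected replicate 1 (0.40 to 0.59, adjusted p from 0.00384 to 0.129), and without the 3 arrays of lowest weight (0.43, adjusted p = 0.0889). Neither call passed on the arrays of the comparison alone (adjusted p = 0.145 and 0.198). With TNFα the difference between empty vector and untransfected cells was 0.29 and 0.36 (adjusted p = 0.178 and 0.113), and it passed without the 3 arrays of lowest weight (adjusted p = 0.0281 and 0.0383).

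DUSP16, which acts on JNK and p38 and shuttles between nucleus and cytoplasm, rose with TNFα and with H133W, and did not pass with SIRT6. Its probe set 224336_s_at was at 7.43, 7.27 and 7.47 in untransfected, 7.61, 7.60 and 7.59 in empty vector, 7.65, 7.52 and 7.67 in SIRT6 and 8.16, 8.04 and 8.07 in H133W cells. With TNFα these became 7.91, 7.93 and 7.97, then 7.98, 7.91 and 8.02, then 8.07, 8.12 and 8.18, and 8.43, 8.51 and 8.63. Unstimulated empty vector and SIRT6 arrays overlapped, and all H133W arrays were higher than both. The rise with H133W was 0.49 (SE 0.0673, adjusted p = 0.000194) and with TNFα 0.55 (SE 0.0673, adjusted p = 4.52e-05), while SIRT6 differed from empty vector by 0.015 (95% interval -0.13 to 0.16) and with TNFα by 0.15 (0.011 to 0.29, adjusted p = 0.703). H133W was also above SIRT6, by 0.48 (adjusted p = 0.00113) and 0.40 (adjusted p = 0.00465), and these 4 calls held with any single array left out. Fitted on the arrays of a comparison alone, H133W against empty vector with TNFα did not pass (adjusted p = 0.104). Nor did H133W against SIRT6 without or with TNFα (adjusted p = 0.0601 and 0.499).

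TNFα raised 224336_s_at by 0.54, 0.37, 0.51 and 0.43 in untransfected, empty vector, SIRT6 and H133W cells (limma, adjusted p from 4.16e-05 to 0.00292). On the arrays of the comparison alone its rises in empty vector and H133W cells did not pass (adjusted p = 0.0562 and 0.205). The probe set 224832_at ran with it over the 24 arrays (r = 0.886) and rose by 0.49, 0.54 and 0.38 in untransfected, empty vector and SIRT6 cells (adjusted p = 0.00316, 0.00131 and 0.0285). Its rise in SIRT6 cells was lost without any single one of the 6 arrays (adjusted p from 0.0602 to 0.147). Its rise in untransfected cells did not pass on the arrays of the comparison alone (adjusted p = 0.0757). In H133W cells it went from 9.33, 9.38 and 9.40 to 9.73, 9.62 and 9.31, a difference of 0.18 that did not pass (adjusted p = 0.283), and 0.31 (adjusted p = 0.021) without the 3 arrays of lowest weight, the lowest value being that of H133W + TNFα replicate 3. H133W raised it by 0.50 over empty vector (adjusted p = 0.00276), and by 0.15 with TNFα (adjusted p = 0.373, and 0.27 with adjusted p = 0.032 without these arrays). Against SIRT6 it was 0.34 higher in H133W cells (adjusted p = 0.136, and 0.00959 without these arrays). The dim 1563505_at, between 2.79 and 3.72, rose by 0.39 with TNFα in H133W cells (adjusted p = 0.0346). That call was lost without any of the H133W arrays or H133W + TNFα replicate 2 (adjusted p up to 0.127). Without the 3 arrays of lowest weight it also passed with TNFα in empty vector cells (0.42, adjusted p = 0.0406, from 0.39 and 0.0505) and in H133W against SIRT6 with TNFα (0.45, adjusted p = 0.044, from 0.37 and 0.0769). 1555399_a_at passed in none of the 12 comparisons (2 at an unadjusted p under 0.05), with differences from -0.19 to 0.29, and differed by 0.12 under TNFα on average (adjusted p = 0.205, and 0.19 with adjusted p = 0.0188 without the 3 arrays of lowest weight).

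DUSP10, which is induced by stress and cytokines and prefers JNK and p38, was higher with H133W and did not respond to TNFα beyond its spread. On 221563_at empty vector arrays were at 6.74, 6.61 and 6.76, SIRT6 arrays at 7.09, 6.75 and 7.20 and H133W arrays at 7.41, 7.20 and 7.41. With TNFα they were at 6.94, 6.67 and 6.60, at 7.06, 7.07 and 6.86, and at 7.59, 7.20 and 6.95. All H133W arrays were above the empty vector arrays of the same stimulation, and SIRT6 arrays overlapped the empty vector arrays. The rise with H133W was 0.63 (SE 0.146, adjusted p = 0.019), and 0.51 (SE 0.146, adjusted p = 0.0469) with TNFα.

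Neither DUSP10 call held against the loss of single arrays. The first ended when H133W replicate 1 or 3, or replicate 1 or 2 of the empty vector, was left out (0.59 to 0.70, adjusted p from 0.0315 to 0.0948). The second ended without H133W + TNFα replicate 1 or 2 or empty vector + TNFα replicate 2 or 3 (0.34 to 0.66, adjusted p from 0.0146 to 0.181). Without the 3 arrays of lowest weight both passed, at 0.59 (adjusted p = 0.0311) and 0.66 (adjusted p = 0.0155). The second call did not pass in a plain linear model (adjusted p = 0.0652), nor on the arrays of the comparison alone (adjusted p = 0.407). The other probe set, 215501_s_at, was 0.60 and 0.46 higher with H133W (adjusted p = 0.0562 and 0.116), and SIRT6 against empty vector was 0.30 on 221563_at (95% interval -0.00095 to 0.61, adjusted p = 0.894). With dim probe sets left out, the difference of 0.60 on 215501_s_at passed. TNFα on average changed the 2 probe sets by -0.034 (-0.19 to 0.12) and -0.053 (-0.23 to 0.12).

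**Figure D3:**
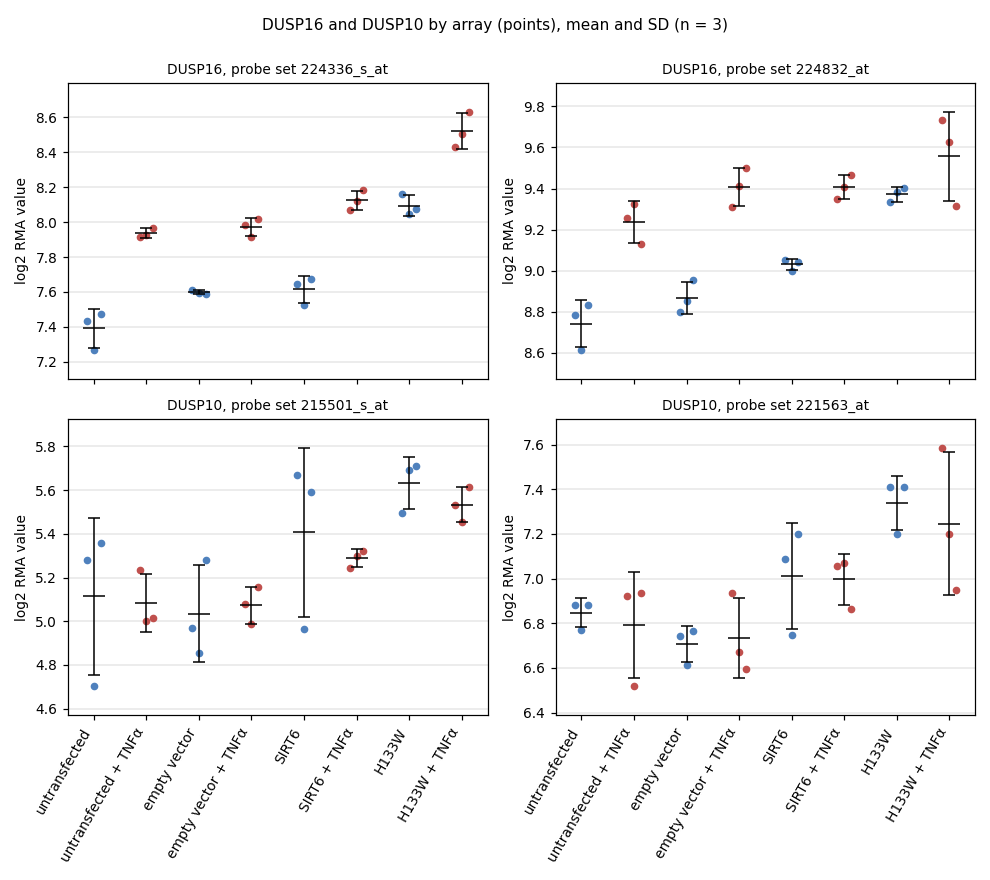
Log2 RMA values of DUSP16 (upper row, 2 of its probe sets) and DUSP10 (lower row, both probe sets) on each array by condition, in red with TNFα and in blue without it. Marks and bars are means and SDs of 3 arrays. DUSP16 224336_s_at steps up with TNFα in all 4 kinds of cells and with H133W, up to 8.63, while DUSP10 is higher in H133W cells and overlaps between stimulated and unstimulated arrays.

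DUSP4, a nuclear phosphatase induced by ERK that acts on ERK and JNK, fell with TNFα. On 204014_at the unstimulated arrays were at 9.85, 9.60 and 9.87 in untransfected, 9.60, 9.78 and 9.91 in empty vector, 9.67, 9.60 and 9.59 in SIRT6 and 9.49, 9.57 and 9.48 in H133W cells. With TNFα they were at 9.50, 9.49 and 9.38, at 9.25, 9.11 and 9.19, at 8.98, 9.06 and 9.09, and at 8.76, 8.72 and 9.11. In each kind of cells every stimulated array was below every unstimulated one. The differences were -0.32 in untransfected (adjusted p = 0.148), -0.58 in empty vector (adjusted p = 0.0013), -0.57 in SIRT6 (adjusted p = 0.00166) and -0.65 in H133W cells (adjusted p = 0.000425), the last -0.78 without H133W + TNFα replicate 3, whose value of 9.11 was the highest of the 3. Without the 3 arrays of lowest weight the difference in untransfected cells also passed (-0.41, adjusted p = 0.00506). The fall in H133W cells was -0.58, no longer over 1.5-fold, without H133W + TNFα replicate 2. It did not pass on the arrays of the comparison alone (adjusted p = 0.183).

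The other 2 probe sets of DUSP4 also fell. 204015_s_at differed by -0.25, -0.44, -0.58 and -0.53 and 226034_at by -0.32, -0.44, -0.37 and -0.56 in untransfected, empty vector, SIRT6 and H133W cells. They passed in the 3 kinds of transfected cells, and 226034_at also in untransfected cells (adjusted p = 0.0177), where 204015_s_at passed without the 3 arrays of lowest weight (-0.35, adjusted p = 0.0246, from 0.285). The call of 226034_at was lost without untransfected replicate 1 or 3 or untransfected + TNFα replicate 2 or 3 (adjusted p up to 0.112), and that of 204015_s_at in empty vector cells without empty vector replicate 3 (adjusted p = 0.0669). On the arrays of a comparison alone 226034_at did not pass in untransfected, empty vector or H133W cells (adjusted p = 0.161, 0.0783 and 0.113). Nor did 204015_s_at in empty vector or H133W cells (adjusted p = 0.0795 and 0.172). Averaged over the kinds of cells the falls were -0.53 (SE 0.0487, adjusted p = 1.4e-07), -0.45 (SE 0.0445, adjusted p = 4.21e-07) and -0.42 (SE 0.0347, adjusted p = 3.05e-08), and the 3 probe sets correlated at r = 0.856 to 0.94. Against empty vector H133W lowered 1 of the 3 probe sets, 226034_at, by -0.26 (adjusted p = 0.045) and with TNFα by -0.38 (adjusted p = 0.00227). The first of these was lost without any of the 3 H133W arrays or empty vector replicate 1 or 2 (-0.30 to -0.18, adjusted p from 0.0383 to 0.247) and without the 3 arrays of lowest weight (adjusted p = 0.0877), and the second held with any single array left out. Neither passed on the arrays of the comparison alone (adjusted p = 0.258 and 0.201). 204014_at differed by -0.25 and with TNFα by -0.32 (adjusted p = 0.205 and 0.0628), the latter -0.44 (adjusted p = 0.00203) without these 3 arrays, and 204015_s_at by -0.037 and -0.13 (adjusted p = 0.904 and 0.448). H133W minus SIRT6 with TNFα was -0.28 on 226034_at (adjusted p = 0.0547, and -0.32 with adjusted p = 0.0102 without these arrays).

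DUSP1, the immediate early phosphatase that inactivates p38, JNK and ERK, moved little. On 201041_s_at untransfected arrays were at 9.06, 8.98 and 9.05, empty vector arrays at 9.33, 9.35 and 9.27, SIRT6 arrays at 9.36, 9.28 and 9.39 and H133W arrays at 9.65, 9.58 and 9.59. With TNFα they were at 9.25, 9.30 and 9.37, at 9.36, 9.30 and 9.36, at 9.36, 9.36 and 9.45, and at 9.54, 9.49 and 9.56. Untransfected arrays without TNFα were the lowest of all conditions and unstimulated H133W arrays the highest. H133W against empty vector gave 0.29 (SE 0.0543, adjusted p = 0.00435), a call that held with any single array left out, and 0.19 with TNFα (adjusted p = 0.0458), which was lost without any of 5 of the 6 arrays, the exception being H133W + TNFα replicate 2 (adjusted p from 0.04 to 0.166), and without the 3 arrays of lowest weight (adjusted p = 0.0724). Neither passed on the arrays of the comparison alone (adjusted p = 0.1185 and 0.424).

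TNFα raised DUSP1 in untransfected cells by 0.27 (SE 0.0543, adjusted p = 0.00704), lost without untransfected + TNFα replicate 3 (adjusted p = 0.0515), and differed by 0.022, 0.048 and -0.075 in empty vector, SIRT6 and H133W cells. The difference of its response between empty vector and untransfected cells was -0.25 (95% interval -0.41 to -0.092, adjusted p = 1). The empty vector was 0.29 above untransfected cells (adjusted p = 0.0344), a call lost without any of 5 of the 6 arrays, the exception being untransfected replicate 3 (adjusted p from 0.0458 to 0.128), and without the 3 arrays of lowest weight (adjusted p = 0.108). H133W was 0.26 above SIRT6 (adjusted p = 0.0323), lost without any single one of the 6 arrays (adjusted p from 0.0609 to 0.196). None of these calls, of TNFα, of the empty vector and of H133W against SIRT6, passed on the arrays of the comparison alone (adjusted p = 0.222, 0.287 and 0.15).

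The other 2 probe sets of DUSP1 did not follow it closely and passed in none of the 12 comparisons. 226578_s_at (r = 0.547 with the first) was at 7.03, 6.99 and 6.92 in H133W and 6.26, 6.12 and 6.68 in empty vector cells, a difference of 0.63 (adjusted p = 0.0629), and at 6.59, 6.43 and 6.02 in H133W cells with TNFα. 201044_x_at (r = -0.097) stayed between 5.70 and 6.15. At an unadjusted p under 0.05 they had 2 and 0 of 12. No call of DUSP1 in the main fit therefore rests on more than 1 probe set. With dim probe sets left out, 226578_s_at also passed in H133W against empty vector without TNFα.

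DUSP5, a nuclear phosphatase with a preference for ERK, and DUSP2, which is known from activated immune cells, passed in none of the 12 comparisons (2 and 0 at an unadjusted p under 0.05 in limma). DUSP5 was at 7.43, 7.21 and 7.52 in empty vector, 7.66, 7.70 and 7.56 in SIRT6 and 7.89, 7.65 and 7.64 in H133W cells. Its difference between H133W and empty vector was 0.34 (95% interval 0.049 to 0.63, adjusted p = 0.242). With TNFα in H133W cells it was at 7.78, 7.55 and 6.98, the last on the array of lowest weight. DUSP2 lay between 3.35 and 3.83 on all 24 arrays, near the low end of the scale, with differences from -0.14 to 0.12.

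**Figure D4:**
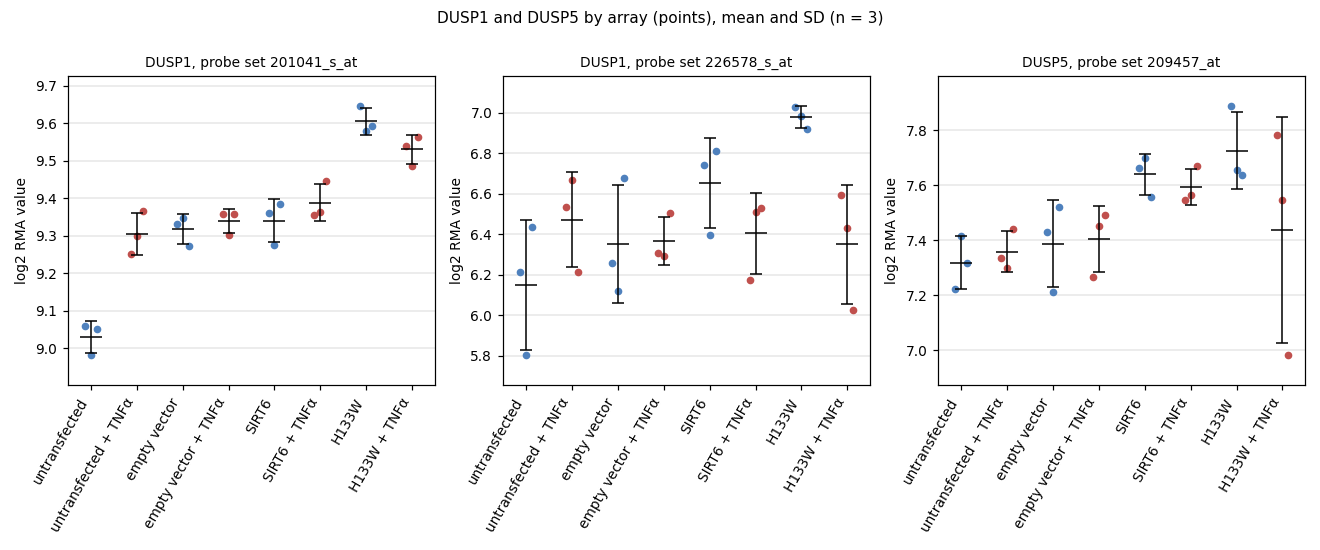
Log2 RMA values of DUSP1 (2 of its probe sets) and DUSP5 on each array by condition, in red with TNFα and in blue without it. Marks and bars are means and SDs of 3 arrays. DUSP1 201041_s_at spans only 8.98 to 9.65, and the low point of DUSP5, 6.98, is H133W + TNFα replicate 3.

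DUSP6, a cytoplasmic phosphatase specific for ERK and a feedback target of ERK signalling, fell with TNFα. On 208892_s_at the unstimulated arrays were at 8.44, 8.42 and 8.44 in untransfected, 8.26, 8.30 and 8.25 in empty vector, 8.48, 8.37 and 8.43 in SIRT6 and 8.22, 8.29 and 8.13 in H133W cells. With TNFα they were at 8.12, 8.07 and 8.37, at 7.96, 7.95 and 7.81, at 8.26, 8.26 and 8.29, and at 8.05, 7.91 and 7.85. Stimulated arrays lay below unstimulated ones in each kind of cells. The differences were -0.24 in untransfected (adjusted p = 0.151), -0.37 in empty vector (adjusted p = 0.0085), -0.16 in SIRT6 (adjusted p = 0.48) and -0.28 in H133W cells (adjusted p = 0.0474).

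Averaged over the kinds of cells all 3 probe sets of DUSP6 fell, 208891_at by -0.23 (SE 0.0424, adjusted p = 0.000884), 208892_s_at by -0.26 (SE 0.0374, adjusted p = 5.38e-05) and 208893_s_at by -0.41 (SE 0.057, adjusted p = 4.22e-05), and these calls held with any single array left out. Within kinds of cells few did. In empty vector cells the fall of 208892_s_at was lost without empty vector + TNFα replicate 3 (adjusted p = 0.0694), and that of 208891_at (-0.39, adjusted p = 0.0144) without empty vector replicate 1 or 2 or empty vector + TNFα replicate 3 (adjusted p up to 0.103) or the 3 arrays of lowest weight (adjusted p = 0.0507). In H133W cells that of 208892_s_at was lost without any array but H133W + TNFα replicate 1 (adjusted p up to 0.192), and without the 3 arrays (adjusted p = 0.126). 208893_s_at differed by -0.35 in untransfected cells (adjusted p = 0.205, and -0.41 with adjusted p = 0.0427 without these arrays). It went from 6.81, 7.08 and 6.72 to 6.36, 6.41 and 5.97 in H133W cells, a fall of -0.62 (adjusted p = 0.00317), and of -0.48 (adjusted p = 0.0153) without the 3 arrays of lowest weight, so that it was no longer over 1.5-fold. This fall did not pass on the arrays of the comparison alone (adjusted p = 0.301).

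SIRT6 cells with TNFα had more DUSP6 than H133W cells with TNFα, by 0.33 on 208892_s_at (H133W minus SIRT6 -0.33, adjusted p = 0.0341), a call lost without any array but H133W + TNFα replicate 1 (adjusted p from 0.0151 to 0.137) and without the 3 arrays of lowest weight (adjusted p = 0.0928). On the other 2 probe sets H133W minus SIRT6 was -0.21 and -0.46 (adjusted p = 0.24 and 0.0539). SIRT6 minus empty vector with TNFα was 0.37, 0.37 and 0.17 (adjusted p = 0.112, 0.0619 and 0.916), and the second, on 208892_s_at, passed without these 3 arrays (adjusted p = 0.027). No DUSP6 probe set passed between H133W and empty vector.

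DUSP7 and DUSP9 are the other cytoplasmic phosphatases of ERK. DUSP7 213848_at fell by -0.17 (SE 0.0426, adjusted p = 0.012) under TNFα on average. Within H133W cells it went from 9.35, 9.37 and 9.39 to 9.25, 9.08 and 8.85, a fall of -0.31 (adjusted p = 0.0491), lost without any array but H133W + TNFα replicate 1 (adjusted p from 0.00769 to 0.197) and -0.21 (adjusted p = 0.0764) without the 3 arrays of lowest weight. In SIRT6 cells it differed by -0.20 (adjusted p = 0.375, and 0.0488 without these arrays). The dim 214793_at of DUSP7 passed in none of the 12 comparisons and lay between 3.97 and 4.68. DUSP9, which is known from placenta and embryo, lay between 8.94 and 9.55 and passed in none, with differences from -0.14 to 0.17 and 0 at an unadjusted p under 0.05.

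**Figure D5:**
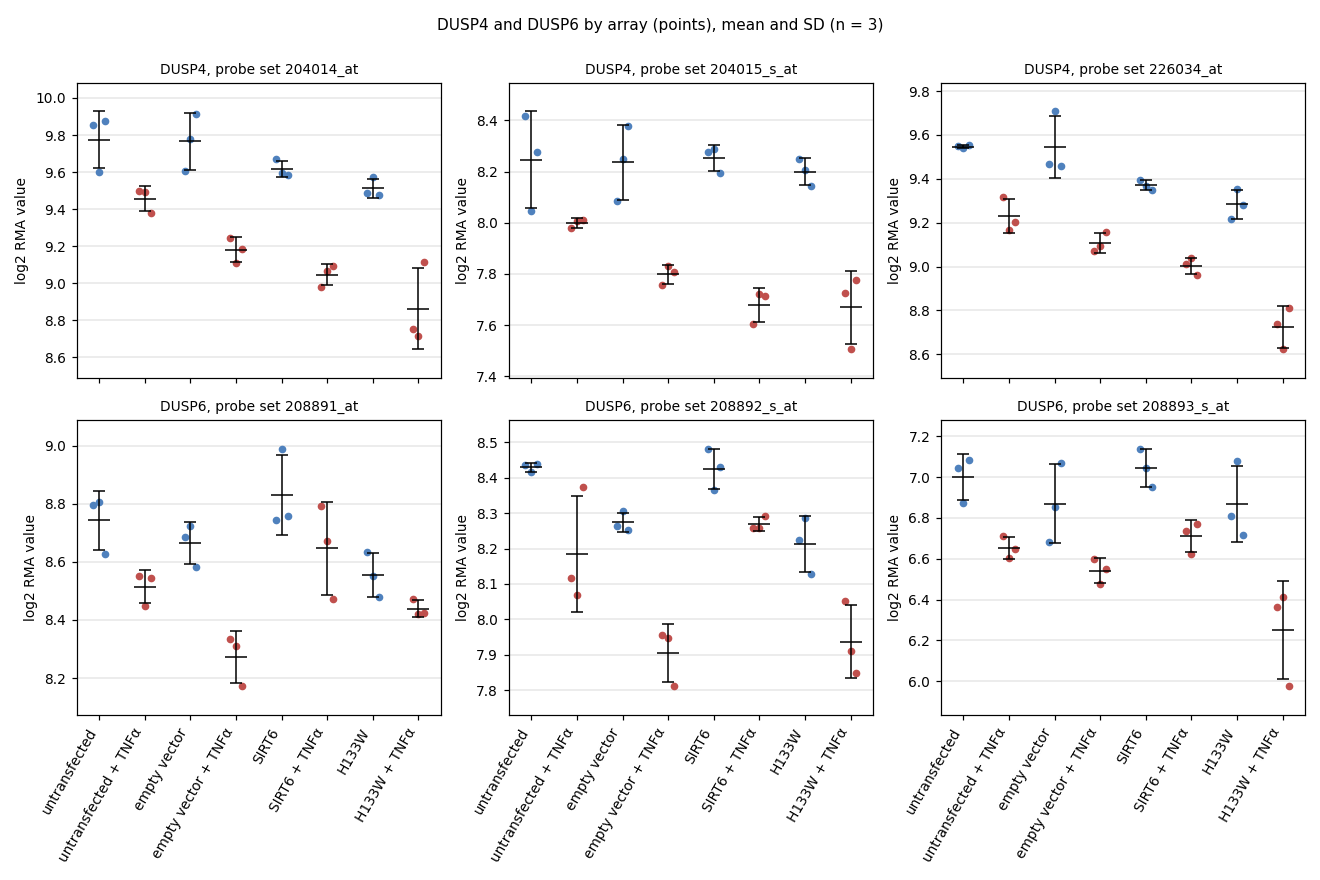
Log2 RMA values of the 3 probe sets of DUSP4 (upper row) and of DUSP6 (lower row) on each array by condition, in red with TNFα and in blue without it. Marks and bars are means and SDs of 3 arrays. The stimulated arrays lie below the unstimulated ones on average in each panel and kind of cells, as in DUSP4 204014_at with H133W (8.72 to 9.11 against 9.48 to 9.57).

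Whether the mutant differs from the wild type was tested directly. DUSP8 was higher in H133W than in SIRT6 cells by 0.25 and 0.37 without TNFα (adjusted p = 0.321 and 0.0784), and by 0.35 and 0.43 with it (adjusted p = 0.0454 and 0.0167). The call of 206374_at was lost without any array but H133W + TNFα replicate 3 (0.26 to 0.48, adjusted p from 0.00142 to 0.171), and that of 238594_x_at without SIRT6 + TNFα replicate 1 or 2 (adjusted p up to 0.0893). Without the 3 arrays of lowest weight all 4 differences passed, at 0.25 and 0.37 (adjusted p = 0.0349 and 0.0233) and 0.48 and 0.45 (adjusted p = 0.00125 and 0.0174). None of these arrays is an unstimulated SIRT6 or H133W array, so the differences without TNFα are the same and only their adjusted p moved. That follows from the choice of arrays and is not separate support. DUSP16 224336_s_at, DUSP1 201041_s_at and DUSP6 208892_s_at, described above, made up the other calls between the 2 proteins. On the arrays of the comparison alone neither DUSP8 difference with TNFα passed (adjusted p = 0.656 and 0.467). Protein amounts are not compared here.

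The response to TNFα was compared between kinds of cells by interaction terms, and no member passed in any of the 3 (backgrounds 0, 0.00366% and 0). At an unadjusted p under 0.05 there were 0 for SIRT6 against empty vector, 4 for H133W against empty vector and 1 for empty vector against untransfected, and a plain linear model also called 0. For DUSP8 the response in H133W cells minus that in empty vector cells was 0.08 (95% interval -0.17 to 0.33) and 0.19 (-0.067 to 0.45). In SIRT6 cells the same difference was -0.026 (-0.28 to 0.22) and 0.12 (-0.13 to 0.38). The 4 with a low unadjusted p were DUSP1 226578_s_at (-0.65, 95% interval -1.17 to -0.12), DUSP6 208891_at (0.28, 0.026 to 0.53), DUSP16 224832_at (-0.35, -0.62 to -0.089) and DUSP7 213848_at (-0.27, -0.52 to -0.02), each with an adjusted p of 0.567.

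Genes of the cascade the phosphatases act on are given beside 11.7% of all probe sets past the test under TNFα on average (4.6% higher and 7.1% lower). These lists were read on 1 probe set per gene, that of highest mean. The background counts all probe sets, so the shares are not like for like. Of 8 measured MAP kinases, MAPK10 (a JNK) and MAPK12 (a p38) fell under TNFα on average, by -0.26 (adjusted p = 0.0243) and -0.20 (adjusted p = 0.0126), and none rose. Of 5 MAP2 kinases 1 fell, MAP2K6, an activator of p38, by -0.44 (adjusted p = 0.000166). Of 10 MAP3 kinases 2 rose and 1 fell: MAP3K8, which activates ERK downstream of the TNF receptor, rose by 1.59 on average (SE 0.0898) and by 1.05 to 1.85 in each kind of cells, and MAP3K5, a stress kinase upstream of JNK and p38, fell by -0.41 (adjusted p = 2.82e-06). MAP3K20 fell by -0.30 (adjusted p = 0.0106) in H133W against empty vector with TNFα. No gene of these 3 lists passed between SIRT6 and empty vector in limma (0 at an unadjusted p under 0.05 without TNFα and 1 with it).

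Sprouty, SPRED and related proteins are feedback inhibitors of ERK signalling. Of 9 measured 3 fell under TNFα on average and 6 did not pass (7.1% of all probe sets fell), SPRY2 by -0.44 (adjusted p = 3.17e-07), IL17RD by -0.24 (adjusted p = 0.000247) and SPRY4 by -0.18 (adjusted p = 0.0242). Of 12 transcripts known as outputs of ERK 3 rose and 6 fell on average. IER3, a survival gene that NFκB also induces, rose by 2.64 and PHLDA1 by 0.97, while ETV1, an ETS factor, fell by -0.996 (adjusted p = 9.86e-05). The list thus moved in both directions, with a median of -0.13 against -0.015 for all probe sets.

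Of 10 measured genes listed as outputs, substrates or regulators of JNK and p38, 5 rose and none fell in H133W against empty vector, both without TNFα (2% of all probe sets rose) and with it (2.97%), with medians of 0.33 and 0.44 against -0.017 and -0.0066 over all probe sets. ATF3, DDIT3, GADD45A and GADD45B rose in both, ZFP36 without TNFα and JDP2 with it. JUN, JUND, MAPKAPK2 and MAPKAPK3 passed in neither, and the activity of JNK and p38 was not tested. The list was chosen with earlier results of these data known. In SIRT6 against empty vector 1 rose without TNFα and 3 with it, and in empty vector against untransfected cells 1 rose without TNFα and 0 passed with it (1 at an unadjusted p under 0.05 in limma). ATF3, a stress-induced member of the ATF family, rose by 1.10 (SE 0.0789, adjusted p = 6e-08) with H133W and by 0.59 (adjusted p = 0.00187) with SIRT6, and it was 0.52 higher in empty vector than in untransfected cells (adjusted p = 0.00875). Under TNFα ATF3 differed by 0.20, 0.033, -0.034 and -0.12 in untransfected, empty vector, SIRT6 and H133W cells and did not pass. Under TNFα on average 2 of the 10 rose and 3 fell (4.6% and 7.1% of all probe sets), with a median of -0.0049 against -0.015 over all probe sets. The 2 that rose were GADD45B, which restrains JNK signalling, by 0.77, and ZFP36, which destabilises cytokine mRNAs, by 0.95. In H133W cells without TNFα they were 0.77 and 0.61 above empty vector (adjusted p = 0.000149 and 0.027).

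The atypical dual specificity phosphatases, which share the catalytic fold but lack the domain that binds MAP kinases, served as the nearest set of genes for comparison. These 21 genes have 47 probe sets, of which only the 1 of highest mean per gene was read. None of those passed under TNFα within any kind of cells (limma, 0 to 4 lower and 0 to 1 higher at an unadjusted p under 0.05), and only EPM2A passed on average (-0.13, adjusted p = 0.00575). With H133W without TNFα DUSP12 and EPM2A rose by 0.25 and 0.23, and with TNFα STYXL1 by 0.28, none of them over 1.5-fold. Of 9 other phosphatases that act on MAP kinases none passed in any of the comparisons (0 to 3 at an unadjusted p under 0.05). Levels were read on 1 probe set per gene in these lists, that with the highest mean, while the members were read on all 22 of theirs, so that the counts are not like for like.

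The genes whose values ran closest to a member over the 24 arrays were found among 24909 probe sets. DUSP8 206374_at ran with RBM15 (r = 0.972), AJUBA (r = 0.962) and KDM6B (r = 0.955), and 238594_x_at with MAFF (r = 0.977), AJUBA (r = 0.967) and RBM15 (r = 0.965). DUSP16 224336_s_at ran with NFKBIB (r = 0.971), which encodes an inhibitor of NFκB, 224832_at with IRGQ (r = 0.957) and 1563505_at with PANK2 (r = 0.827). DUSP4 204014_at ran with LAMA4, a laminin chain (r = 0.963), 204015_s_at with OSR1 (r = 0.963) and 226034_at with ARHGAP28 (r = 0.948). DUSP6 208893_s_at ran with ZNF703 (r = 0.927), 208892_s_at with NR2F1 (r = 0.881) and 208891_at with CSRNP3 (r = 0.818). DUSP7 213848_at ran with OTULINL (r = 0.925) and DUSP1 201041_s_at with AJUBA (r = 0.921). For DUSP10 221563_at the closest was AKIRIN2, at a lower r of 0.858. These correlations describe arrays of 8 conditions that share their preparation and normalisation.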

How the data were processed

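Transcripts were measured on Affymetrix HG-U133 Plus 2.0 arrays, 24 in all, 3 biological replicates in each of 8 conditions. The authors deposited log2 values per probe set, normalised by RMA in ArrayStudio 4.0 per the labels and methods, and these were used unchanged. Probe sets were named from the platform annotation: 41097 had 1 gene symbol, 1801 several and 11777 none. All 54675 probe sets were fitted in R 4.3.3 with limma 3.58.1 (1 mean per condition, lmFit and eBayes), giving 12 comparisons, 1 average and 3 interactions, each adjusted by Benjamini-Hochberg. A set of changed probe sets was recovered from simulated data. The text names every member, of each gene list up to 3 genes that passed, those of largest difference first, and for each member probe set that passed the closest of the 3 genes of highest Pearson r found, or all 3 for DUSP8. All genes of the JNK and p38 list are also named for H133W against empty vector. The members, gene lists and tests were chosen with earlier results of these data known. Alternatives were a plain linear model, a variance trend, dim probe sets left out, repeated quantile normalisation, array weights, the replicate number as a block, the arrays of a comparison alone, no fold threshold, each array left out, and, chosen after seeing the data, the 3 arrays of lowest weight left out.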

Additional observations from a re-analysis of the deposited data

How the results depend on the processing

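Of 70 single differences past the test none changed sign under any alternative, and 49 passed whichever array was left out. A plain linear model kept 69, the variance trend 67 and repeated quantile normalisation 66. Fitted on the arrays of a comparison alone, 21 of 58 passed, and the cause of these losses was not tested.

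The number of members past the test under TNFα was 10 in untransfected cells with array weights (6 without). On the arrays of the comparison alone it was 2 in untransfected, 4 in empty vector and 0 in H133W cells, and 0 for SIRT6 and 1 with TNFα for H133W against empty vector, and 0 for H133W against SIRT6 without or with TNFα and for empty vector against untransfected. With array weights it was 5 for SIRT6 against empty vector with TNFα, 5 and 9 for H133W against SIRT6 without and with TNFα, and 5 for empty vector against untransfected with TNFα. Repeated quantile normalisation left 1 for empty vector against untransfected. Without the 3 arrays of lowest weight it was 5 for H133W against SIRT6 without TNFα, and 1 and 2 for empty vector against untransfected without and with TNFα.

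Members also over 1.5-fold under TNFα numbered 0 in untransfected and 1 in empty vector cells with array weights, 0 in untransfected and 0 in H133W cells on the arrays alone, and 0 in untransfected cells without the 3 arrays. On average they numbered 1 with array weights and 1 after repeated quantile normalisation. On the arrays alone they were 0 for SIRT6 against empty vector and 1 for H133W against empty vector with TNFα, and 5 for H133W against empty vector when dim probe sets were left out. Without a fold threshold they were 6, 9, 7 and 10 under TNFα in untransfected, empty vector, SIRT6 and H133W cells, 12 on average, 7 and 6 for H133W against empty vector, 2 and 4 for H133W against SIRT6, and 3 for empty vector against untransfected.

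With each array left out in turn, the members past the test under TNFα numbered 5 to 6 in untransfected, 7 to 10 in empty vector, 5 to 6 in SIRT6 and 7 to 12 in H133W cells, and 12 on average throughout. They numbered 2 for SIRT6 against empty vector, 5 to 9 and 4 to 6 for H133W against empty vector without and with TNFα, 1 and 1 to 5 for H133W against SIRT6, and 0 to 1 for empty vector against untransfected. Over 1.5-fold they were 0 to 1, 0 to 2, 0 to 3 and 2 to 4 under TNFα in the 4 kinds of cells in this order, 0 to 1 on average, 2 and 1 to 2 for SIRT6 against empty vector, 2 to 5 and 2 to 3 for H133W against empty vector, and 0 to 1 for empty vector against untransfected. The cause of these changes was not tested.

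With the replicate number as a block 62 of the 70 differences passed, and 2 members (4 without the block) passed for H133W against SIRT6 with TNFα. Replicate numbers do not pair the arrays: deviations of same-numbered arrays from their group means correlated at -0.448 to 0.404 (median 0.00914), and 10 of 24 arrays correlated best with their own number.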
